A study of Mus musculus with 15 samples.

Results

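H2ac18, H2ac19 and H2ac23 encode histone H2A, a core protein of the nucleosome around which DNA is wound. The 3 genes were chosen by symbol, as the H2A genes of the replication type among the 112 gene symbols that the array's RefSeq accessions gave. Each had 1 probe, so they take 3 of the 59709 probes measured. The study profiled RNA from whole livers of C57BL/6 mice on 15 Agilent 1-colour arrays, 3 for each stage. The earliest livers were taken at E12.5 (E stands for embryonic day), followed by those of E14.5 and E17.5, newborn (neonatal) mice and adults of 8 weeks. The labels name no treatment and no altered gene, and they give neither the sex of the mice nor whether livers were pooled. They also do not say that the arrays of a stage come from different animals, so each p-value below measures the spread among these samples alone, and that spread may be technical. The design asks how RNA levels in liver change over development.

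Replication-type histone genes lie in clusters and are transcribed mainly while a cell copies its DNA, because each new genome needs new histones. Their mRNAs end in a stem-loop instead of a poly(A) tail, and they are destroyed quickly once DNA synthesis stops. Some of these genes are also known to give polyadenylated transcripts in cells that have left the cell cycle. The embryonic liver is a blood-forming organ with many dividing erythroid precursors and hepatoblasts, whereas adult hepatocytes rarely divide. Per the labels' protocols, ribosomal RNA was removed from TRIzol-extracted RNA and the cRNA was made by random priming along whole transcripts, so priming did not depend on a poly(A) tail. In whole-liver RNA, fewer cells of a type and less RNA per cell cannot be told apart.

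H2ac18 and H2ac19, formerly Hist2h2aa1 and Hist2h2aa2, are next to each other on chromosome 3 on opposite strands, in the RefSeq table of assembly GRCm38.p6. Of the 10 genes nearest to each, 9 for H2ac18 and 8 for H2ac19 carry histone symbols. H2ac23, listed with the older symbols Hist1h2ao and Hist1h2ap, lies on chromosome 13, where at least 8 of its 10 nearest genes carry histone symbols. The promoter windows below are shown because the first pair are near copies of each other while the third gene is not. Each runs 5′ to 3′ on the gene's own strand over 300 bases around the annotated start, from RefSeq on GRCm38.p6. The H2ac18 window is chr3:96245247-96245546 (plus strand), the H2ac19 window chr3:96240325-96240624 (minus strand) and the H2ac23 window chr13:21810117-21810416 (plus strand). Capitals mark CCAAT, its reverse complement ATTGG, and TATAA on the forward strand.
H2ac18: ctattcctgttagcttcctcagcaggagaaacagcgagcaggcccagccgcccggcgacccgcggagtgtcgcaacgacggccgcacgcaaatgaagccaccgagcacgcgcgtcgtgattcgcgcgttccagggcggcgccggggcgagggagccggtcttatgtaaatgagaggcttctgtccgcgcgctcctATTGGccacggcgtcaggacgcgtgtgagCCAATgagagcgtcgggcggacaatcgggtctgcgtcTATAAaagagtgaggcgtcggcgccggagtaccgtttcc
H2ac19: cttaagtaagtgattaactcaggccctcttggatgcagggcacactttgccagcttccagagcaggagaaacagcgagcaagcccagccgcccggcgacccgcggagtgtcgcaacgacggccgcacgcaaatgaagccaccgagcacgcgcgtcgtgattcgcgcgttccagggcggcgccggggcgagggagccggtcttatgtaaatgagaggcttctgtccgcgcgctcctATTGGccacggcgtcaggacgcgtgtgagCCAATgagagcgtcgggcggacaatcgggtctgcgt
H2ac23: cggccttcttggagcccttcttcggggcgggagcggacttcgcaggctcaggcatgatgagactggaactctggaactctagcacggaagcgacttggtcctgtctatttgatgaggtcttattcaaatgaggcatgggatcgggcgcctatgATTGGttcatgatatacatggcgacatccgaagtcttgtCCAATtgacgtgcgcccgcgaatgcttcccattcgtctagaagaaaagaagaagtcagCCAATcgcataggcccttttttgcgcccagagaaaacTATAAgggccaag
The H2ac18 and H2ac19 windows share an unbroken run of 219 identical bases. Shifted by 40 bases, they overlap over 260 bases, of which 249 (95.8%) are the same. Set against the H2ac23 window without gaps, at the shift of the longest common run, the identity was 30.5% for H2ac18 and 31.5% for H2ac19. CCAAT, searched on both strands, was found 2, 2 and 3 times in the H2ac18, H2ac19 and H2ac23 windows, and 37.4% of 32851 such windows hold it at least once. At least 2 copies were found in 11.7% of the windows and at least 3 in 3.37%. TATAA, counted over both strands, was found 1, 0 and 1 times and is in 24.9% of the windows. It begins 11 bases past the annotated start in H2ac18 and 37 bases past it in H2ac23, not upstream. A CCAAT begins 14 bases past the annotated start in H2ac19 and at that start in H2ac23. At the 40-base shift, the place of the H2ac18 TATAA lies past the end of the H2ac19 window. Whether H2ac19 has a TATAA at that place was thus not read. CAAATGA, a string also searched on both strands, occurred 1 time in each of the 3 windows and in 3.83% of all windows, and ATGCAAAT occurred in none of the 3 and in 1.74% of all. The strings searched can share bases with each other. A match describes the letters and is not a binding site. The letters of the array probes are not used here, so how far the H2ac18 probe also reads H2ac19 RNA, or the reverse, was not tested. Whether any of the 3 probes also reads other H2A genes, such as the nearby H2ac20, H2ac21, H2ac22 and H2ac24, was not tested either.

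Signals below are the scanner software's background-subtracted intensities. Scaled values are log2 of that signal minus log2 of the array's own 75th percentile, which was 145 to 301 across arrays. The number of arrays limits the precision. Outside E17.5 replicate 1, 50.9% to 62.9% of spots were well above background, and 4% to 9.58% of negative-control spots were. E17.5 replicate 1 stood apart, with 80.9% of spots and 55.8% of negative-control spots well above background. The arrays fell into 2 scan groups per the file headers, each taken as a slide. Slide 1 held 8 arrays, those of both earlier embryonic stages and the first pair of E17.5 replicates, and slide 2 held 7, namely E17.5 replicate 3 with the neonatal and adult arrays. Adult or neonatal liver against E12.5 or E14.5 therefore never shares a slide, and for these pairs a slide effect is separated from stage through the E17.5 arrays alone. All neonatal and adult arrays are on slide 2. The size of adult against neonatal liver within slide 2 therefore repeats the main value by design and is no check of it. Of 14 hepatocyte markers the array annotation names 1 (Hmgcs1, an enzyme of sterol synthesis), and Alb and the globin genes are not among the names used here, so the tissue label was not checked against them.

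H2ac18 signal was higher at each later stage than at the one before it. The signals in replicate order were 1447, 1573 and 1583 for E12.5, 2874, 3146.3 and 2548 for E14.5, 12993, 9251 and 9798 for E17.5, 17526, 22799 and 21186 for neonatal liver, and 35203, 41630.1 and 29617 for adult liver. The signal ranges of neighbouring stages did not overlap at any step. On the scaled log2 scale the means were 2.71 ± 0.45 for E12.5, 3.35 ± 0.16 for E14.5, 5.54 ± 0.070 for E17.5, 6.49 ± 0.15 for neonatal and 7.64 ± 0.14 for adult liver (SD, n = 3 each). After scaling, the E14.5 and E12.5 arrays overlapped, since E12.5 replicate 1 stood at 3.23 and the other E12.5 arrays at 2.45 and 2.46.

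The rise of H2ac18 was largest, among the 4 steps between neighbouring stages, at E17.5 against E14.5. That log2 change was 2.20 (SE 0.24), with an adjusted p of 7.09e-05 in limma with Benjamini-Hochberg adjustment over 37357 tested features. Within slide 1 it was 2.16 (adjusted p = 0.00988), and without E17.5 replicate 1 it was 2.23 (adjusted p = 0.00038 in limma). Adult liver stood 1.15 log2 units (SE 0.24) above neonatal liver (limma adjusted p = 0.00289), and within slide 2 this step had the same size (adjusted p = 0.0043). Neonatal liver stood 0.95 (SE 0.24) above E17.5 liver with a limma adjusted p of 0.0155. Within slide 2 the only E17.5 array is replicate 3, and against it the change was 0.87 (adjusted p = 0.122), with that lone array assumed to vary like the other groups. The call was also lost in a fit of the 2 stages alone (adjusted p = 0.0726) and without neonatal replicate 2 (change 0.87, adjusted p = 0.0689). For E14.5 against E12.5 the change was 0.64 (SE 0.24, limma adjusted p = 0.170), which did not pass the threshold of 0.05. Over the whole course, adult liver was 4.93 log2 units (SE 0.24) above E12.5 liver, a 30.6-fold difference (limma adjusted p = 1.09e-09). With slide as a block the value was 4.82. Of all tested features, 98.2% had a lower change between these stages.

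**Figure D1:**
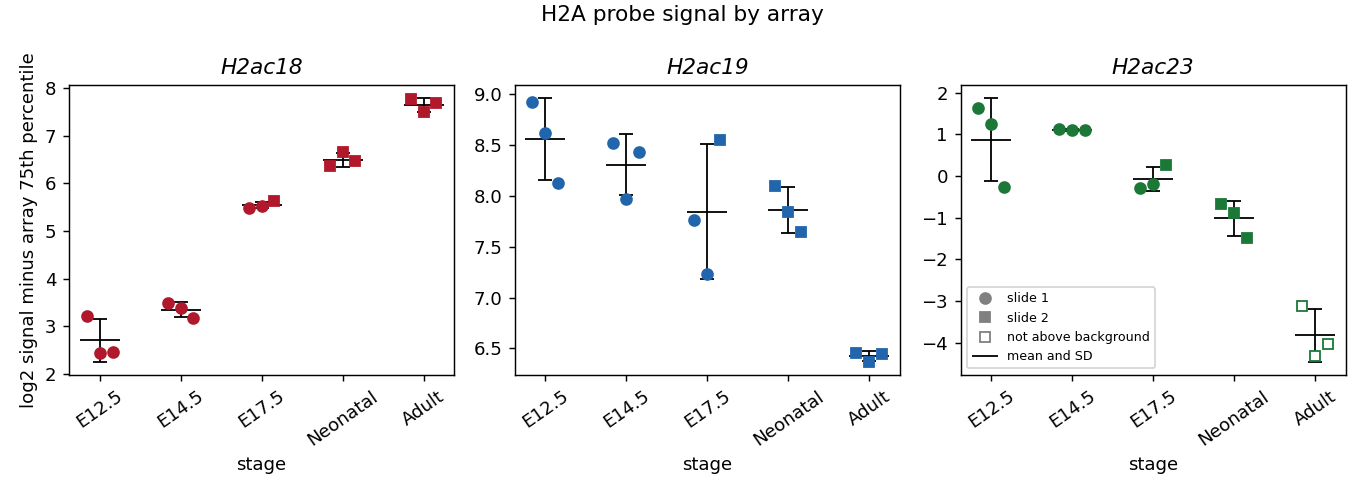
Scaled log2 signal of H2ac18, H2ac19 and H2ac23 (vertical axes, each with its own range) on each of the 15 arrays by stage. Points are arrays, circles for slide 1 and squares for slide 2, open where the probe was not well above background, and lines give the mean and SD of 3 arrays. H2ac18 stands highest in adult liver (mean 7.64), while H2ac19 (6.42) and H2ac23 (open squares) stand lowest there.

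H2ac19, the neighbour of H2ac18, was lower in adult liver than at every earlier stage. Its signals in replicate order were 75315, 113456 and 80809 for E12.5, 94482, 75464 and 97873 for E14.5, 62973, 30087 and 74577 for E17.5, 58449, 51905 and 48373 for neonatal liver, and 14169, 19167 and 12635 for adult liver. The 3 adult arrays lay below each of the 12 earlier arrays. The widest spread was at E17.5, where replicate 2 was low and replicate 3, the E17.5 array of slide 2, was high. Scaled means were 8.56 ± 0.40, 8.31 ± 0.30, 7.85 ± 0.66, 7.87 ± 0.23 and 6.42 ± 0.046 from E12.5 to adult liver (SD, n = 3 each).

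Between neighbouring stages, the called fall of H2ac19 lay at adult against neonatal liver. Adult against neonatal liver gave a log2 change of -1.44 (SE 0.32, limma adjusted p = 0.00452). On slide 2, which holds both stages, the change was again -1.44 (adjusted p = 0.0017). None of the 3 earlier steps passed the test in limma. Their log2 changes were -0.25 for E14.5 against E12.5 (adjusted p = 0.807), -0.46 for E17.5 against E14.5 (adjusted p = 0.418) and 0.019 for neonatal against E17.5 liver (adjusted p = 0.975), and all 3 had an unadjusted p above 0.05. Leaving out 1 array moved the first between -0.47 (without E12.5 replicate 3) and -0.066 (without E12.5 replicate 1). It moved the second between -0.81 (without E17.5 replicate 3) and -0.15 (without E17.5 replicate 2), and neither step passed the threshold in any of these fits. The sign of the last of these depended on the scaling and the slide, since it was -0.29 after quantile normalization and -0.68 within slide 2, against E17.5 replicate 3 alone, neither past the threshold. Within slide 1, E17.5 against E14.5 liver gave -0.81 (adjusted p = 0.217). Adult against E12.5 liver gave -2.14 (SE 0.32, limma adjusted p = 8.30e-05), or -3.19 with slide as a block (adjusted p = 0.000219). Adult against E17.5 liver gave -1.42 (limma adjusted p = 0.00344), and within slide 2 it was -2.12, against E17.5 replicate 3 alone, the highest E17.5 array. In the order of levels, E12.5, E14.5, neonatal and E17.5 liver came before adult liver, and by the main scaling none of these 4 was told apart from its neighbour in that order. Neonatal against E14.5 liver, one of these neighbouring pairs, gave -0.44 (limma adjusted p = 0.283), but passed the threshold after quantile normalization (-0.70, adjusted p = 0.0401) and in the authors' value table (-0.70, adjusted p = 0.0359). E17.5 against E12.5 liver gave -0.71 (limma adjusted p = 0.150), but -1.06 with slide as a block or without E17.5 replicate 3 (adjusted p = 0.0183 for both). Fitted on the slide 1 arrays alone, the same -1.06 had an adjusted p of 0.0693. Neonatal against E12.5 liver gave -0.69 (limma adjusted p = 0.0979), with no overlap between scaled arrays. It passed the threshold after quantile normalization (-0.77, adjusted p = 0.0264), in the authors' value table (-0.76, adjusted p = 0.0245) and with slide as a block (-1.75, adjusted p = 0.0223). In 8 of the 11 alternatives other than leaving out an array, it did not pass.

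H2ac23, the gene of the chromosome 13 cluster, had the weakest signal of its course in adult liver too. Its signals in replicate order were 478, 689 and 242 for E12.5, 561, 646 and 605 for E14.5, 239, 176 and 240 for E17.5, 133, 122 and 86.6 for neonatal liver, and 18.7, 11.5 and 8.91 for adult liver. It was well above background on each of the 12 earlier arrays and not well above background on any of the 3 adult arrays. Scaled means were 0.88 ± 1.00 for E12.5, 1.11 ± 0.015 for E14.5, -0.067 ± 0.29 for E17.5, -1.01 ± 0.42 for neonatal and -3.82 ± 0.63 for adult liver (SD, n = 3 each). The E12.5 spread came from replicate 3, at -0.25, which lay among the E17.5 values.

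Because the adult values of H2ac23 are not well above background, its falls to adult liver are given as folds to a background limit. Each adult array was set to the higher of its own value and its lowest signal among probes well above background. To that limit, H2ac23 was 5.10-fold lower in adult than in neonatal liver (limma adjusted p = 0.000296 for the measured means). Against E17.5, E14.5 and E12.5 liver, adult liver was 9.84-fold, 22.2-fold and 18.9-fold lower to the limit. The limma adjusted p-values for the measured means were 1.40e-05, 5.92e-07 and 8.88e-07. On slide 2 the measured adult-to-neonatal change was -2.81 (adjusted p = 0.00122). With normexp background correction, which lifts dim spots, that change was -0.99 and the one against E12.5 liver -2.39, both still past the threshold. These falls are smaller than those to the limit, so the folds to the limit are not lower bounds.

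The earlier course of H2ac23 was less sharply resolved. E14.5 against E12.5 liver gave 0.23 (SE 0.44, limma adjusted p = 0.885), and -0.33 without E12.5 replicate 3. E17.5 against E14.5 liver gave -1.18 (limma adjusted p = 0.128), although the arrays of the 2 stages did not overlap, and -1.34 within slide 1 (adjusted p = 0.191). Without E12.5 replicate 3 that step had an SE of 0.33 and an adjusted p of 0.0480, and with normexp it was -1.04 (adjusted p = 0.0316). Neonatal against E17.5 liver gave -0.95 (limma adjusted p = 0.148), again with no overlap between arrays, and -1.28 within slide 2, against E17.5 replicate 3 alone (adjusted p = 0.212). Neonatal against E14.5 liver gave -2.12 (limma adjusted p = 0.00169), and with slide as a block it was -2.63 (adjusted p = 0.0509). Neonatal against E12.5 liver gave -1.89 (limma adjusted p = 0.00368), and -2.40 with slide as a block (adjusted p = 0.0646).

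Each of the 3 genes varied over the 5 stages by limma's moderated F test, which called 61% of tested features. The F values were 151.5 for H2ac18, 13.3 for H2ac19 and 41.7 for H2ac23, with adjusted p-values of 3.15e-09, 0.000517 and 2.36e-06. The F values depended on single arrays, with 234 for H2ac18 without E12.5 replicate 1, 22.2 for H2ac19 without E17.5 replicate 3 and 78 for H2ac23 without E12.5 replicate 3. Slide as a block gave 44.4 for H2ac18 and a lower F for H2ac23 too, and all of these stayed past the threshold. For E14.5 against E12.5 liver, 0 of the 3 genes were called by limma, where 4.93% of features were called. There, 1 of the 3, H2ac18, had an unadjusted p below 0.05, as did 6480 of the 37357 features, and H2ac18 was called after normexp correction (0.69, adjusted p = 0.0232), in the authors' value table (0.74, adjusted p = 0.0458), with array weights (0.81, adjusted p = 0.00849) and without E12.5 replicate 1 (0.90, adjusted p = 0.0236). For E17.5 against E14.5 liver, 1 of 3 was called, H2ac18, higher, beside 7.11% of features in either direction. For neonatal against E17.5 liver, 1 of 3 was called, again H2ac18, higher, beside 18.1% of features. For adult against neonatal liver all 3 were called, 1 higher and 2 lower, beside 25.9% of features. For adult against E12.5 liver, likewise, 1 was called higher and 2 lower, beside 50.8% of features. The other pairs of stages gave 1 called gene of 3 for E17.5 against E12.5 (17% of features), 2 for neonatal against E12.5 (41.9%), 2 for neonatal against E14.5 (43%), 3 for adult against E14.5 (49.6%) and 3 for adult against E17.5 liver (35.4%). In the comparisons with adult liver a call was thus common among all features. The median log2 change of the 3 genes was -1.44 between adult and neonatal liver, against 0.17 over all tested features, and -2.14 between adult and E12.5 liver, against -0.038. With 1 gene higher and 2 lower, each median of the 3 is the H2ac19 value and does not describe a shared fall. Neighbouring steps share the arrays of the stage between them, so their values are not independent of each other.

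**Figure D2:**
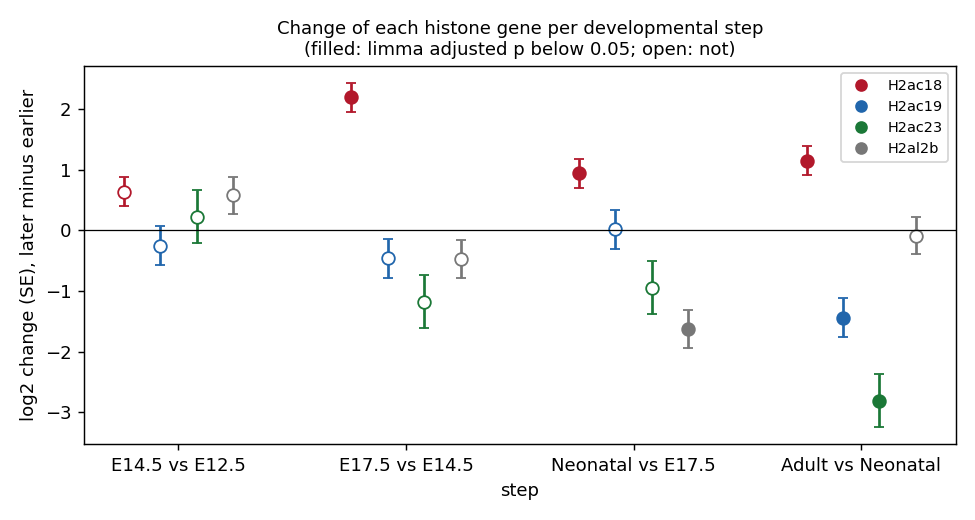
Log2 change (vertical axis) of the 3 H2A genes and H2al2b for the 4 steps between neighbouring stages (horizontal axis), later minus earlier stage, with bars of 1 SE and filled points where limma's adjusted p was below 0.05. H2ac18 lies above 0 at each step, with its largest step of the 4 at E17.5 against E14.5 (2.20), and H2ac19 lies furthest below 0, among the 4 steps, at adult against neonatal liver (-1.44). The H2ac23 point there is the measured -2.81, which rests on adult arrays at background. To the background limit the fall was 5.10-fold, and normexp correction gave a log2 change of -0.99.

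**Figure D3:**
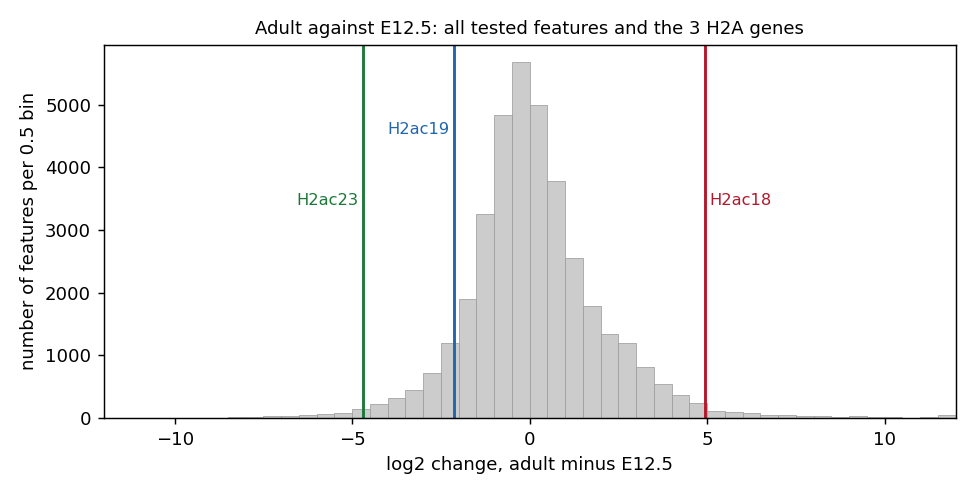
Number of tested features (vertical axis) per bin of log2 change between adult and E12.5 liver (horizontal axis, 0.5 wide bins, the outermost also holding larger changes), with vertical lines at the 3 H2A genes. H2ac18 lies at 4.93, above 98.2% of features, whereas H2ac19 (-2.14) lies in the lower part, with 8.06% of features below it. The H2ac23 line marks the measured -4.70, which rests on adult arrays at background. To the background limit the fall was 18.9-fold, and normexp correction gave a log2 change of -2.39.

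The genes were also set against each other within each array, which removes the array's scaling. Such a difference compares 2 probes, so its sign does not rank the genes and its change between stages is what can be read. H2ac18 minus H2ac19 was -5.85 ± 0.28 for E12.5, -4.96 ± 0.35 for E14.5, -2.30 ± 0.61 for E17.5, -1.37 ± 0.32 for neonatal and 1.22 ± 0.097 for adult liver (log2, SD, n = 3 each). The 3 adult arrays averaged 1.22 and the 12 earlier arrays -3.62, a change of 4.84 (exact permutation test over 455 arrangements, two-sided p = 0.0022, adjusted over the 3 pairs of genes p = 0.0022, the smallest it can give). Restricted to slide 2, adult arrays against the 4 others there, the change was 2.98 (exact permutation p = 0.0286, the smallest that 35 arrangements can give). The 12 earlier arrays span stages whose means differ, so they are not replicates of 1 group. The adult arrays were the highest for H2ac18 and the lowest for H2ac19, so these smallest p-values were already set by the values above. By the stage means alone, the near copies on chromosome 3 changed unequally between the earlier stages and adult liver.

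H2ac18 minus H2ac23 was 1.83 ± 0.78, 2.24 ± 0.15, 5.61 ± 0.23, 7.51 ± 0.45 and 11.47 ± 0.51 from E12.5 to adult liver (log2, SD, n = 3 each), the adult value resting on an H2ac23 probe at background. The change of adult against the earlier arrays was 7.17, or 6.71 with H2ac23 set to its background limit, with the same exact permutation p of 0.0022 for both. The adult arrays were the highest for H2ac18 and the lowest for H2ac23, as measured or at the limit. Both p-values were thus already set by the values above and add no support. For the pairs with H2ac23 too, the earlier arrays span differing stages and are not replicates of 1 group. H2ac19 minus H2ac23 was 7.68 ± 0.61, 7.20 ± 0.29, 7.91 ± 0.44, 8.88 ± 0.22 and 10.25 ± 0.60 over the same stages. Its change was 2.33, or 1.87 at the limit, again with an exact permutation p of 0.0022. This last change was lost with normexp correction, at 0.053 (exact permutation p = 0.873 after adjustment), so an unequal fall of H2ac19 and H2ac23 depended on how background was handled. Between adult and neonatal liver H2ac18 minus H2ac19 changed by 2.59. There, H2ac18 minus H2ac23 changed by 3.96 as measured, 3.50 at the limit and 2.07 with normexp correction, and H2ac19 minus H2ac23 by 1.37, 0.91 and -0.56. With 3 arrays against 3 the exact permutation test cannot go below p = 0.1, the value each gave.

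**Figure D4:**
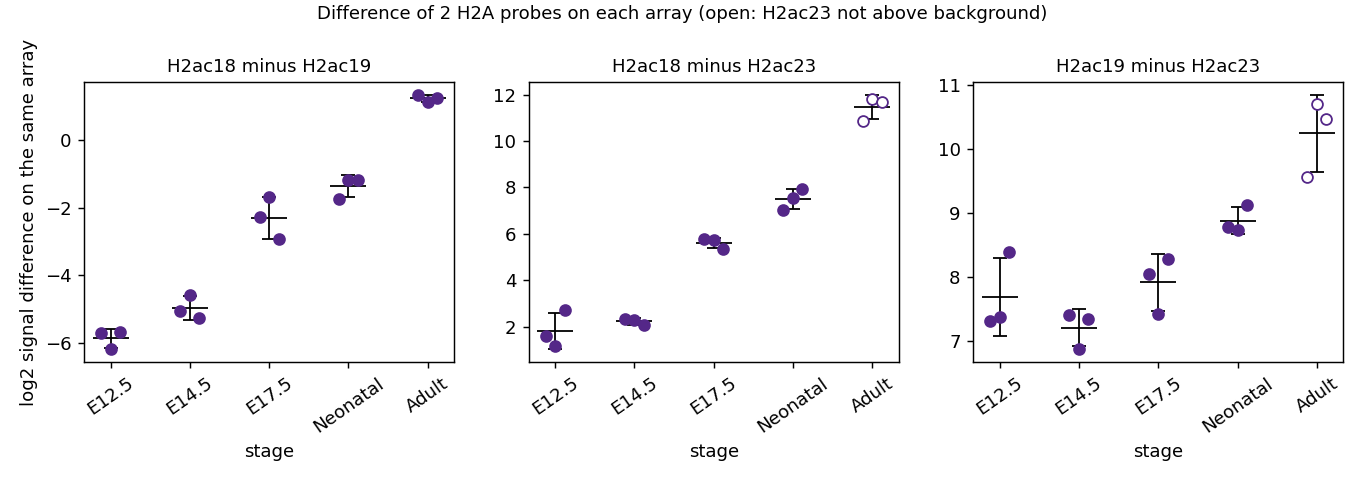
Within-array log2 difference between 2 H2A genes (vertical axes) on each of the 15 arrays by stage, with lines for the mean and SD of 3 arrays. H2ac18 minus H2ac19 climbs over the stages to a mean of 1.22 in adult liver. In the differences that involve H2ac23, the adult points are open because that probe was not well above background.

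Across the 15 arrays the scaled values of H2ac19 and H2ac23 went together (Pearson r = 0.93, Spearman rho = 0.88), and H2ac18 ran opposite to both. H2ac18 with H2ac19 gave r = -0.79 and rho = -0.77, and H2ac18 with H2ac23 gave r = -0.86 and rho = -0.85. These correlations describe the 15 arrays, which share stages, slides and scaling, and are given with no test. The 3 lowest H2ac23 values, those of the adult arrays, are at background, so its correlations, here and with other genes further on, rest in part on values below detection.

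The remaining histone gene named on the array, H2al2b, encodes an H2A variant known from testis, where it takes part in repackaging sperm chromatin. Its signals were low, at 192, 185 and 185 for E12.5, 358, 358 and 291 for E14.5, 244, 219 and 140.3 for E17.5, 67.1, 55.6 and 67.8 for neonatal liver, and 35.1, 52.2 and 54.1 for adult liver. The neonatal and adult arrays lay below all arrays of the embryonic stages. Neonatal against E17.5 liver gave a log2 change of -1.63 (SE 0.31, limma adjusted p = 0.00309), and -1.33 within slide 2 against E17.5 replicate 3 alone, the lowest E17.5 array (adjusted p = 0.0878). Adult against neonatal liver gave -0.086 (limma adjusted p = 0.859), with the sign turned by normexp (0.083). By the main scaling, the called falls of H2ac19 and H2ac23 between neighbouring stages lay at this step. H2ac23 was also called lower in neonatal than in E12.5 and E14.5 liver. The difference between the genes was not tested. Adult against E12.5 liver gave -1.60 (limma adjusted p = 0.000693), and -1.16 with slide as a block (adjusted p = 0.121).

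Markers of dividing and blood-forming cells could be read only in part. Of 42 genes on an S phase and cell cycle list, the array names 1, the alpha-tubulin gene Tuba1b, and of 16 genes for histone mRNA processing and histone supply it names 0. Tuba1b had a scaled log2 mean of 7.01 ± 0.27 in adult and 8.59 ± 0.10 in neonatal liver (SD, n = 3 each), a change of -1.57 (limma adjusted p = 0.00130). Of 13 erythroid markers 1 is named, Tfrc, the transferrin receptor that takes up iron. Tfrc stood at 5.50 ± 0.39 in adult and 8.16 ± 0.16 in neonatal liver (SD, n = 3 each), a change of -2.66 (limma adjusted p = 4.67e-05). Both were thus called lower at the step where H2ac19 and H2ac23 were called lower, and their part in those falls was not tested. Between neonatal and E17.5 liver, Tuba1b and Tfrc changed by -0.56 and -0.43, and neither passed the test.

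Of 12 common reference genes, 9 are named and were tested. In adult against E12.5 liver, 1 was called higher, 2 were called lower and 6 were not called, with a median log2 change of -0.38. B2m, the light chain of MHC class I, changed by 2.68 (limma adjusted p = 9.73e-06) and Rpl13a, a ribosomal protein gene, by -2.03 (limma adjusted p = 7.28e-06). The changes of Actb (-0.075), Gapdh (0.47) and Ppia (0.047) did not pass the test. H2ac18 changed by more than the 9 reference genes did, as its 4.93 stands beside their highest of 2.68.

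Scaled values were also compared with those of the tested genes among the 112 named, the 3 members left out. Most like H2ac18 over the 15 arrays were Gk, a glycerol kinase gene (Pearson r = 0.95), B2m (r = 0.93) and Csprs (r = 0.90). Vmn1r157 (r = 0.88) and Tmlhe, an enzyme of carnitine synthesis (r = 0.87), came next. Gm4312 (r = -0.93) and Rpl13a (r = -0.89) ran most opposite to H2ac18. Of these, Csprs and Vmn1r157 rose above background on none of the E12.5 and E14.5 arrays. Csprs also did so on none of the neonatal and 2 of the 3 E17.5 arrays, and Vmn1r157 on 1 of the 3 E17.5 arrays. Correlations with either gene thus rest in part on values below detection. H2ac19 was most like Tfrc (r = 0.93), Tuba1b (r = 0.92), Gm4312 (r = 0.92), Rpl13a (r = 0.92) and Ccdc82 (r = 0.89), and most opposite to Csprs (r = -0.85) and Gk (r = -0.80). H2ac23 was most like the same 5 genes, with Tuba1b at 0.96, Tfrc at 0.95, Gm4312 at 0.93, Ccdc82 at 0.91 and Rpl13a at 0.89, and most opposite to Tmlhe (r = -0.88) and Gk (r = -0.87). The named genes are few, and the files give no gene name for most features that resemble the 3.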

How the data were processed

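Liver RNA was prepared with TRIzol, depleted of ribosomal RNA and turned into random-primed Cy3 cRNA, per the labels' protocols. Per the file headers, the deposited spot intensity is on a linear scale, background-subtracted by Feature Extraction 11.0.1.1 (the submitters' processing notes name 10.7.3.1) and not scaled between arrays, on a grid built on mm9. Per the file headers, a multiplicative detrending was used on slide 2 except adult replicate 2, and on no slide 1 array. The authors' value table holds deposited log2 values of 29158 probes, with column medians of 7.80 to 7.89 and the same probe order as the scanner files (lowest Spearman 0.999997). Its normalization is not given in the sources used here.

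Stages came from the sample titles. Control and outlier spots were left out, spots of 1 probe were averaged, and log2 signal minus the array's 75th percentile was the main scale. Of 59709 probes, 123 carried a RefSeq accession and 116 of these matched a symbol, 112 symbols in all, with the brightest probe standing for each of the 3 symbols with several. A feature was tested if every array of some stage had it well above background, 37357 in all, with limma 3.58.1 in R 4.3.3 (1 mean per stage, all 15 arrays), at an adjusted p below 0.05. The fit, tested on simulated data, missed many of the changes put in, the smaller ones above all, so a step that did not pass may still be a change. Named genes were the 3 members, every other named histone gene, list examples, and for each member the 5 genes with the highest and the 2 with the lowest correlation. Members and lists were chosen with earlier results of these data known. Normexp (offset 50) used the median spot signal, because the files hold no mean-signal column. Alternatives were other scalings, background correction, filters, slide as a block or alone, array weights, the replicate block and leaving out each array. No 2 arrays held the same values (highest Pearson 0.983).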

Additional observations from a re-analysis of the deposited data

How the results depend on the processing

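Over 973 alternative values for the 3 H2A genes, 941 kept direction and side of the threshold, 7 lost the call, 15 gained it and 10 changed sign. The cause of these changes was not tested. Some of the 973 could not move, so the 941 do not measure agreement. Leaving out an array of a stage outside a comparison keeps its log2 change. The permutation tests of adult against neonatal liver cannot go below p = 0.1, so they could not cross the threshold. H2ac18 lost its call in neonatal against E17.5 liver with slide as a block (0.87), within slide 2, where 1 array stands for E17.5 (0.87), and with the 2 stages alone (0.95). In E14.5 against E12.5 liver it gained a call at 0.69 (normexp), 0.74 (authors' table) and 0.81 (array weights). H2ac19 in neonatal against E17.5 liver changed sign, at -0.29 after quantile normalization, -0.29 in the authors' table, -0.14 with the 75th percentile over probes above background everywhere, and -0.68 within slide 2 or with slide as a block. It gained a call in E17.5 against E12.5 liver with slide as a block (-1.06), in neonatal against E12.5 liver (-0.77 quantile, -0.76 authors' table, -1.75 slide block) and in neonatal against E14.5 liver (-0.70 quantile, -0.70 authors' table). H2ac23 gained a call in E17.5 against E14.5 liver with normexp (-1.04) and lost it with slide as a block in neonatal liver against E12.5 (-2.40) and E14.5 (-2.63). H2ac19 minus H2ac23 within arrays was -0.56 with normexp for adult against neonatal liver, a change of sign, and 0.053 for adult against earlier arrays, a lost call. Setting H2ac23 to its limit and taking slide 2 alone for within-array differences were chosen after seeing the data and changed no call. H2al2b in adult against neonatal liver changed sign with normexp (0.083) and array weights (0.32).

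Leaving out each array, ranges that crossed a threshold or 0 were, for H2ac18, 0.51 to 0.90 (E14.5 against E12.5 liver) and 0.87 to 1.01 (neonatal against E17.5), and for H2ac19 -0.29 to 0.37 (neonatal against E17.5), -1.06 to -0.41 (E17.5 against E12.5) and -0.91 to -0.51 (neonatal against E12.5). For H2ac23 came -0.33 to 0.61 (E14.5 against E12.5), -1.51 to -0.57 (E17.5 against E12.5) and -1.34 to -1.07 (E17.5 against E14.5), and for H2al2b -0.34 to 0.054 (adult against neonatal). Replicate numbers did not pair the samples: deviations of same-number arrays from stage means correlated at -0.24 to 0.48, 7 of 30 pairs over 0.1. The replicate block changed no call of the 3 genes (H2ac18 in adult against E12.5 liver 4.93, H2ac19 in adult against neonatal liver -1.44). Every stage holds every replicate number, so this block cannot move the log2 changes of the 3 genes, only their estimated spread.

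Counts of called features moved. E14.5 against E12.5 liver gave 1843, and 1120 with median centring, 1140 unfiltered, 1116 with the 2 stages alone, 3004 with normexp, 5659 with array weights and 673 to 2603 without an array. E17.5 against E14.5 liver gave 2655, and 1477 with median centring, 1516 with probes above background on all arrays, 1409 within slide 1, 1291 with the 2 stages alone and 1380 to 3287 without an array. Neonatal against E17.5 liver gave 6747, and 2265 with the slide block, 2196 within slide 2, 2832 with the 2 stages alone, 13011 with array weights and 3611 to 13308 without an array. Adult against neonatal liver gave 9662, and 20969 with array weights, and E17.5 against E12.5 liver gave 6335, and 2085 with the 2 stages alone. The same filter and slide block gave 12175 and 11844 for adult against E12.5 liver (18978), 11971 and 10686 for adult against E14.5 (18532), 10096 and 5399 for neonatal against E12.5 (15651), and 10507 and 4463 for neonatal against E14.5 (16060). Each gene has 1 probe, so single probes add no value, and the filter removes H2ac23.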

Other observations

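The features that went with the H2A genes most closely over the 15 arrays mostly have no gene name in the files. Of the 37356 other tested features, 466 had a Pearson r of at least 0.95 with H2ac18, 18 with H2ac19 and 168 with H2ac23. At or below -0.95 there were 45 for H2ac18, 0 for H2ac19 and 59 for H2ac23. These counts describe the arrays, which share stages, slides and scaling, and carry no test.

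Hmgcs1, the named hepatocyte marker and an enzyme of sterol synthesis, took a course unlike that of the 3 H2A genes. Its scaled log2 mean was 7.01 at E12.5, 7.34 at E14.5, 7.88 at E17.5, 5.76 in neonatal and 8.86 in adult liver. It was called lower in neonatal than in E17.5 liver, with a log2 change of -2.12, and higher in adult than in neonatal liver. Amy2a5, a pancreatic amylase gene, averaged a signal of 5.43 at E12.5, 190 at E14.5, 10849 at E17.5, 15435 in neonatal and 849 in adult liver, and none of the E12.5 arrays had it well above background. Its part in the values of the H2A genes was not tested.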
